A study of Mus musculus with 14 samples.

Results

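The genes described here are 10 enzymes of NAD metabolism and sirtuins in mouse liver: Nampt, Nmnat1, Nmnat3, Nadsyn1, Qprt, Nnmt, Sirt1, Sirt3, Sirt5 and Sirt6. They were chosen by name from the 22180 genes of the table that had a probe set with 1 gene symbol, and all 10 were measured, each by 1 such probe set. Liver RNA of male C57BL/6J mice was measured in 14 samples, called mice here by their sample number, of which 7 belonged to a sleep-deprived group (mice 1, 2, 3, 5, 6, 10 and 13) and 7 to a control group (mice 4, 7, 8, 9, 11, 12 and 14). The question of the study was what 6 h of lost sleep do to glucose tolerance and to fat in the liver. Of 3 ways of disturbing sleep in the design (changed cages, a platform in water and gentle handling), the labels do not say which came before these arrays. They give no age, feeding state or time of day, and no allele or drug for either group. All values are log2 expression on Affymetrix whole-transcript arrays after RMA, a method that corrects background, equalizes the arrays and summarises the probes of a gene.

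NAD carries electrons in fuel oxidation and is also used up by enzymes that split off its nicotinamide. Liver makes it from tryptophan through quinolinate, from nicotinic acid, and above all in recycling from nicotinamide, where NAMPT is the limiting enzyme and the NMNAT enzymes join the last nucleotide. Sirtuins consume NAD to remove acyl groups from proteins, SIRT1 and SIRT6 in the nucleus and SIRT3 and SIRT5 in mitochondria, and NNMT takes nicotinamide out of the cycle by methylating it. Transcription of Nampt is known to be driven by the circadian clock.

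The arrays were alike in scale, with medians from 3.443 to 3.491 and correlations between pairs of arrays from 0.984 to 0.9903. The 6 hepatocyte markers (Alb, Apoa1, Ttr, Hnf4a, Serpinc1 and Cps1) were bright, with a mean log2 level from 12.05 to 12.19 in sleep-deprived livers and from 11.99 to 12.1 in control livers. Of these, Apoa1 (0.12 ± 0.034, log2 difference ± SE; limma, adjusted p = 0.0277) and Cps1 were higher. Of the 6 sinusoidal endothelial markers 2 were higher (Lyve1 by 1.13 ± 0.18 and Pecam1 by 0.29 ± 0.080) and 0 lower, and their mean level ran from 7.53 to 7.97 in sleep-deprived livers and from 7.34 to 7.7 in control livers. The other 4, which did not pass, were nearer to 0, with Stab2 at 0.044, Fcgr2b at 0.0054, Clec4g at 0.12 and Kdr at -0.18. Of 5 cholangiocyte markers Sox9 was higher (0.56 ± 0.16; limma, adjusted p = 0.0359), of 4 periportal hepatocyte markers Hal was lower (-0.40 ± 0.062; adjusted p = 0.000237), and of 3 B cell markers Cd79a was lower (-0.38 ± 0.091; adjusted p = 0.0112). Of 6 pericentral hepatocyte, 6 Kupffer cell, 6 stellate cell, 6 T and NK cell, 5 neutrophil and 3 adipocyte markers 0 passed the test. Over all genes 8.5% passed it, and 20.4% of the genes above median brightness when fitted alone. In whole liver, fewer cells of a type and less RNA per cell cannot be told apart, and the part of these marker differences in the results below was not tested.

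Of the 10 genes 5 differed between the groups: 1 was higher (Nnmt) and 4 were lower after sleep deprivation (Nadsyn1, Nmnat3, Sirt5 and Sirt3). Over all genes 8.5% passed the same test (limma, Benjamini-Hochberg adjusted p under 0.05 over 22180 genes), 3.88% being higher and 4.62% lower. The 10 genes were chosen with earlier results of these data known. All 10 lie above the median brightness of the genes, and among the 11090 genes above it, fitted and adjusted alone, 20.4% passed. The differences were small, from -0.37 to 0.61 on the log2 scale, with a median of -0.078 over the 10 genes and of -0.0048 over all genes. Errors of log2 differences are limma's moderated SE, except where related genes are compared on the same array. There they are the unmoderated SE of the difference between the group means.

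**Figure D1:**
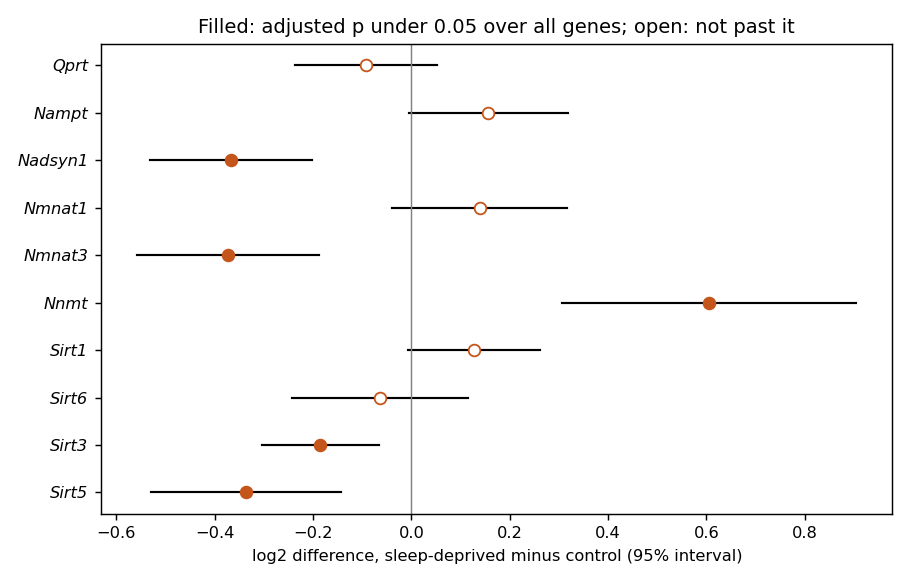
Log2 difference of sleep-deprived minus control for each of the 10 genes, with its 95% interval as a line. Filled points passed an adjusted p under 0.05 over all genes: Nnmt lies right of 0 and Nadsyn1, Nmnat3, Sirt3 and Sirt5 left of it.

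The routes into NAD come first. Qprt makes the pyridine mononucleotide from quinolinate, the last step of its own in the tryptophan route. Its log2 level had a lowest, median and highest value of 7.99, 8.24 and 8.47 in sleep-deprived livers, against 8.16, 8.35 and 8.41 in control livers. The groups overlapped, with the lowest and the highest of all 14 values in the sleep-deprived group. The difference was -0.092 ± 0.069 (95% interval -0.24 to 0.053; limma, adjusted p = 0.547).

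Nampt, the enzyme that turns nicotinamide into its mononucleotide, had a lowest, median and highest level of 8.52, 8.88 and 9.01 in sleep-deprived livers, against 8.44, 8.75 and 8.81 in control livers. Sleep-deprived mice 1, 6, 10 and 13 lay above all controls, while mice 2, 3 and 5 lay among them. The log2 difference was 0.16 ± 0.077 and did not pass (95% interval -0.0058 to 0.32; limma, adjusted p = 0.283).

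Nadsyn1 encodes NAD synthetase, which amidates the acid form of the dinucleotide and so completes NAD from both nicotinic acid and tryptophan. Its lowest, median and highest level was 5.90, 6.21 and 6.41 in sleep-deprived livers, against 6.45, 6.53 and 6.75 in control livers. It was the 1 gene of the 10 whose groups did not overlap, which held for 3.13% of all genes. The log2 difference was -0.37 ± 0.079, or 77.5% of the control level (limma, adjusted p = 0.00486). Its adjusted p stayed between 0.00348 and 0.0137 when each mouse was left out in turn.

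The NMNAT enzymes attach the adenylate to the mononucleotide, NMNAT1 in the nucleus and NMNAT3 in mitochondria. Nmnat1 had a lowest, median and highest level of 6.02, 6.10 and 6.38 in sleep-deprived livers, against 5.68, 6.10 and 6.27 in control livers. The groups overlapped and had the same median to 2 decimals, with control mouse 4 lowest of all. The means differed by 0.14 ± 0.085 (95% interval -0.039 to 0.32; limma, adjusted p = 0.424).

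Nmnat3 had a lowest, median and highest level of 3.73, 3.90 and 4.02 in sleep-deprived livers, against 3.99, 4.29 and 4.55 in control livers. Only control mouse 11, at 3.99, fell inside the range of the sleep-deprived group. The log2 difference was -0.37 ± 0.088, or 77.2% of the control level (limma, adjusted p = 0.0098). Its probe set was dim, at the 51.5th percentile of the 22180 genes by mean brightness.

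Nnmt encodes nicotinamide N-methyltransferase, which spends a methyl group of S-adenosylmethionine on nicotinamide, so that it leaves the recycling route. Its lowest, median and highest level was 6.84, 7.42 and 7.87 in sleep-deprived livers, against 6.42, 6.75 and 7.11 in control livers. Sleep-deprived mice 1, 3, 5, 6 and 13 lay above all controls, and mice 2 (6.84) and 10 (6.94) lay among them. The mean was 7.38 ± 0.37 in sleep-deprived livers and 6.77 ± 0.27 in control livers (SD, n = 7 each). Nnmt rose by 0.61 ± 0.14 on the log2 scale, a 1.52-fold level and the largest difference of the 10 (limma, adjusted p = 0.00964). By the exact permutation test it was at p = 0.00758, and the call was lost once that was adjusted over all genes (adjusted p = 0.0806). Nnmt is also abundant in fat tissue. The 3 adipocyte markers measured (Adipoq, Plin1 and Lep) had a mean log2 level from 2.87 to 3.26 in sleep-deprived livers and from 2.82 to 3.31 in control livers, and 0 of the 3 passed the test. These markers were dim, with means from 2.54 to 3.90, and a part of fat tissue in the Nnmt difference was not tested.

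**Figure D2:**
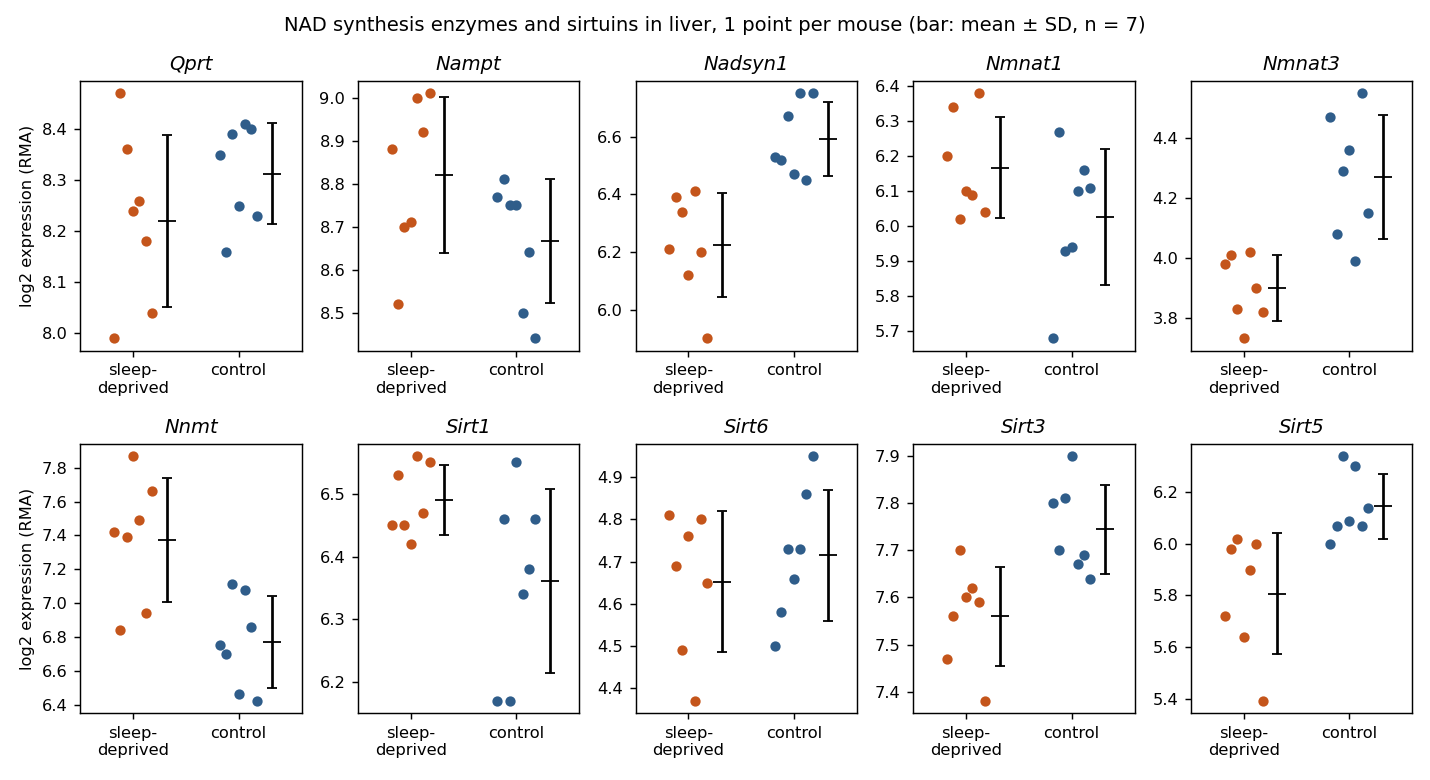
Log2 expression of the 10 genes in each mouse, sleep-deprived (orange) left of control (blue), with the mean and SD of each group as a bar. Nadsyn1 separates the groups fully, and the Nnmt points of sleep-deprived mice 2 and 10 sit within the control range.

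Neither Sirt1 nor Sirt6 passed the test. Sirt1, a deacetylase of transcription factors that govern fasting metabolism, had a lowest, median and highest level of 6.42, 6.47 and 6.56 in sleep-deprived livers, against 6.17, 6.38 and 6.55 in control livers. All 7 sleep-deprived mice lay above the control mean, but the control values spread wider, with SDs of 0.054 in sleep-deprived and 0.14 in control livers. Sirt1 differed by 0.13 ± 0.064 (95% interval -0.0063 to 0.26; limma, adjusted p = 0.29).

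Sirt6, a chromatin-bound deacylase that restrains glycolytic genes, had a lowest, median and highest level of 4.37, 4.69 and 4.81 in sleep-deprived livers, against 4.5, 4.73 and 4.95 in control livers. The ranges overlapped over most of their length. Sirt6 differed by -0.064 ± 0.086 (95% interval -0.24 to 0.12; limma, adjusted p = 0.782). A second probe set, annotated to Sirt6 together with 4 predicted genes and so not used above, averaged 6.43 ± 0.065 in sleep-deprived and 6.34 ± 0.096 in control livers (SD, n = 7 each), a log2 difference of 0.089 ± 0.054 (limma over all probe sets, adjusted p = 0.531).

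Sirt3 and Sirt5, which act in mitochondria, were lower. Sirt5, which strips succinyl, malonyl and glutaryl groups from mitochondrial enzymes, had a lowest, median and highest level of 5.39, 5.90 and 6.02 in sleep-deprived livers, against 6.00, 6.09 and 6.34 in control livers. The ranges touched only at the top of the sleep-deprived and the bottom of the control group (mice 3, 10 and 4, at 6.02, 6.00 and 6.00). The log2 difference was -0.34 ± 0.092, or 79.2% of the control level (limma, adjusted p = 0.0252). The call was lost without sleep-deprived mouse 1 (adjusted p = 0.0555) or mouse 5 (0.0601), and without control mouse 8 (0.0579) or mouse 11 (0.0581), with differences from -0.32 to -0.30.

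Sirt3, the main deacetylase of the mitochondrial matrix, had a lowest, median and highest level of 7.38, 7.59 and 7.70 in sleep-deprived livers, against 7.64, 7.70 and 7.90 in control livers. Of the sleep-deprived mice, mouse 3 alone reached into the control range. The log2 difference was -0.19 ± 0.057, or 88.0% of the control level, just inside the threshold (limma, adjusted p = 0.0486). Leaving out single mice ended the call in 12 of 14 fits, with adjusted p up to 0.112, although the difference stayed between -0.21 and -0.16. The exact permutation test gave p = 0.00233 and, over all genes, an adjusted p of 0.0388.

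Related genes were then compared on the same array, so that the size of 1 change was set against that of the other. The 7 pairs were chosen by relation (the NMNAT pair and the 6 pairs among the 4 sirtuins) after the values were seen. Nmnat1 minus Nmnat3 averaged 2.27 ± 0.13 in sleep-deprived and 1.76 ± 0.34 in control livers (SD, n = 7 each), so that the changes differed by 0.51 ± 0.14 (exact two-sided permutation test, p = 0.00291, adjusted over the 7 pairs p = 0.0068). The change of Sirt1 exceeded that of Sirt3 by 0.31 ± 0.084 and that of Sirt5 by 0.46 ± 0.13 (exact permutation p = 0.00175 and 0.00117, adjusted p = 0.00612 each). Both held without any single mouse, as did the NMNAT pair, with adjusted p up to 0.019. Sirt3 and Sirt5 differed from each other by 0.15 ± 0.089 (exact permutation p = 0.118, adjusted p = 0.138), and the pairs with Sirt6 did not pass either (adjusted p from 0.117 to 0.328).

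**Figure D3:**
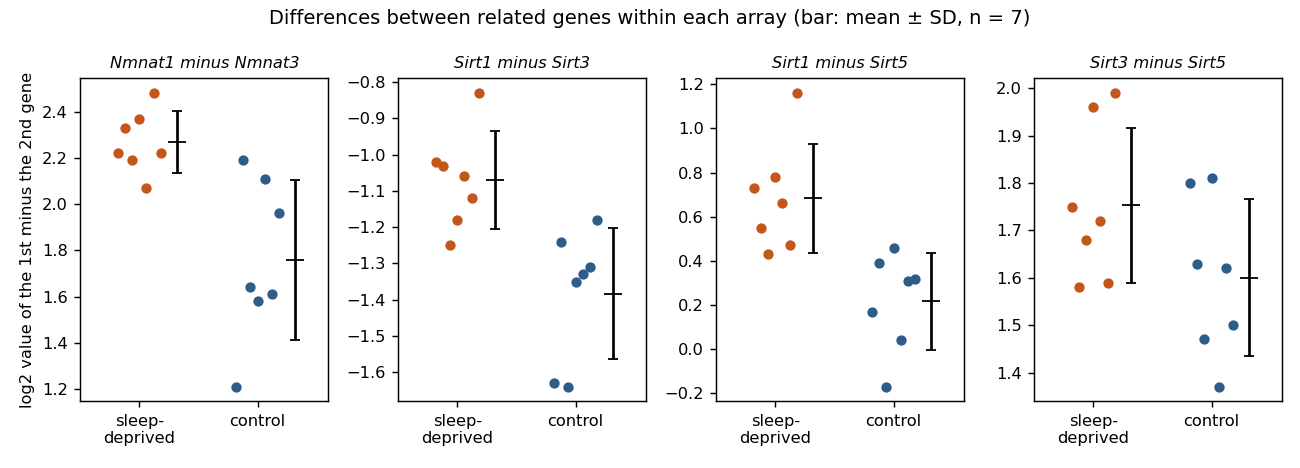
Log2 value of one gene minus that of a related gene on the same array, for each mouse, sleep-deprived (orange) left of control (blue), with mean and SD as a bar. Nmnat1 minus Nmnat3, Sirt1 minus Sirt3 and Sirt1 minus Sirt5 are shifted upward in sleep-deprived livers, and Sirt3 minus Sirt5 differs by less.

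Relations between the 10 genes among mice of the same group were examined pair by pair. Pearson's r was computed for the 45 pairs in each group of 7, and 4 of the 90 relations had an exact permutation p under 0.05, with 0 left after adjustment (smallest adjusted p = 0.553). With 7 mice and 90 relations only a very close relation could pass. The test therefore cannot tell whether the genes varied together. The strongest was that of Nadsyn1 with Sirt5 in sleep-deprived livers (r = 0.87, exact permutation p = 0.0151, adjusted p = 0.553; Spearman's rho = 0.57, exact permutation p = 0.20, adjusted p = 0.75), and r was 0.73 without the 2 mice farthest from the Nadsyn1 median. In control livers the same pair had r = 0.71 (exact permutation p = 0.0825, adjusted p = 0.553). Sleep-deprived mouse 13 had the lowest value of all 14 mice in Nadsyn1 (5.90), Sirt3 (7.38) and Sirt5 (5.39), and the highest in Nampt (9.01). Without it the log2 difference was -0.31 for Nadsyn1 (limma, adjusted p = 0.00947), -0.27 for Sirt5 (0.0485) and -0.16 for Sirt3 (0.112).

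Nadsyn1 had the smallest p of the 10 genes, and its pattern within the groups was set against all other genes. After each group's mean was taken off, the 5 genes most like it over the 14 arrays were Tspan10, Parn, Osbp, Nsun3 and Zfp980, with Pearson's r from 0.83 to 0.88. They were picked as the highest values over all genes and are given as a description. Of the 5, Parn, a poly(A) ribonuclease, was also lower (-0.21 ± 0.063; limma, adjusted p = 0.037), and the others did not pass.

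In 9 lists of genes around these 10, from 23.1% to 55.6% of the measured genes passed the test, against 8.5% of all genes. The lists hold the 10 genes too, and of the 100 measured genes other than these 35.0% passed. The lists were chosen with earlier results of these data known, so their shares are only a description. Of the genes above median brightness, fitted and adjusted alone, 20.4% passed. The median log2 differences of the lists lay from -0.11 to 0.077, against -0.0048 over all genes. The tryptophan route has 12 genes with Qprt, of which 3 rose and 1 fell. The largest change was at Acmsd, whose enzyme takes the intermediate before quinolinate away from NAD synthesis toward oxidation. Acmsd ranged from 7.58 to 8.28 in sleep-deprived livers, against 6.56 to 7.42 in control livers, without overlap. It rose by 0.95 ± 0.13, a 1.93-fold level (limma, adjusted p = 9.13e-05). Tdo2, the first and limiting enzyme of the route in liver, rose by 0.23 ± 0.049 (adjusted p = 0.00366) and Kynu, the kynureninase, by 0.26 ± 0.052 (limma, adjusted p = 0.00278). Afmid, the formamidase of the second step, fell by 0.28 on the log2 scale (SE 0.072, limma, adjusted p = 0.0151), a call lost with the sample number as a covariate (adjusted p = 0.0843). Haao, the oxygenase that makes the branch-point intermediate, was at -0.076 ± 0.051 (limma, adjusted p = 0.477).

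In the list of the nicotinic acid and salvage routes 2 of 13 genes rose and 3 fell, so that 38.5% passed, against 8.5% of all genes. Nmnat3 and Nadsyn1 are 2 of those that fell. Nmrk1, a kinase that feeds nicotinamide riboside into NAD, was at -0.41 ± 0.099 (limma, adjusted p = 0.0116). Nt5e, the ectonucleotidase CD73, rose by 0.43 ± 0.11 (adjusted p = 0.0152), and both calls were lost by exact permutation adjusted over all genes (0.0553 each). Pnp, purine nucleoside phosphorylase, rose by 0.44 ± 0.13 (limma, adjusted p = 0.0359), which no longer passed in 9 of 14 fits that each omitted a mouse (adjusted p at most 0.0802), nor by exact permutation over all genes (0.103). Naprt, which starts the nicotinic acid route, did not pass either, at -0.099 ± 0.049 (limma, adjusted p = 0.284).

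Beside Nnmt, the list of nicotinamide clearance and the methyl donor cycle had 1 other gene of 9 higher and 3 lower. With Nnmt, 55.6% of the list passed, against 8.5% of all genes. The aldehyde oxidases Aox1 and Aox3, which oxidise methylated nicotinamide, were lower by a like amount, at -0.33 ± 0.080 and -0.32 ± 0.085 (limma, adjusted p = 0.0124 and 0.0203), the call of Aox3 being lost by exact permutation over all genes (adjusted p = 0.0995). Ahcy, which clears the S-adenosylhomocysteine left by methylation, rose by 0.18 ± 0.052 (limma, adjusted p = 0.039). Pemt, another large user of S-adenosylmethionine in liver, was at -0.12 ± 0.036 (limma, adjusted p = 0.036). Leaving out 1 mouse ended the call of Ahcy in 9 and that of Pemt in 8 of 14 fits, with adjusted p up to 0.0889 and 0.0829, and Ahcy was at 0.0647 by exact permutation over all genes. Averaged over its 2 probe sets, Ahcy was at 0.15 ± 0.055 (limma, adjusted p = 0.126). Pemt was at -0.12 ± 0.048 in limma without the intensity trend (adjusted p = 0.146). Mat1a and Gnmt, which make and spend that methyl donor, were at 0.057 ± 0.046 and 0.086 ± 0.046 (limma, adjusted p = 0.579 and 0.341).

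Of all 7 sirtuin genes 0 were higher and 3 lower, Sirt3 and Sirt5 among them, where 3.88% of all genes were higher and 4.62% lower. Leaving out 1 mouse ended the call of Sirt3 in 12 and that of Sirt5 in 4 of 14 fits. The third was Sirt7, a nucleolar deacetylase, at -0.25 ± 0.065 (limma, adjusted p = 0.0214, and 0.0526 without sleep-deprived mouse 13). Sirt4, the remaining mitochondrial sirtuin, was at -0.11 ± 0.071 (limma, adjusted p = 0.475), and the mainly cytosolic Sirt2 at 0.0011 ± 0.049 (adjusted p = 0.996). Other NAD-consuming enzymes and their partners had 1 of 17 higher and 5 lower, so that 35.3% passed, against 8.5% of all genes. Parp4, Parp12, Parp14 and Parp3, ADP-ribosyltransferases, were at -0.40 ± 0.072, -0.37 ± 0.079, -0.23 ± 0.060 and -0.29 ± 0.072 (limma, adjusted p from 0.00103 to 0.0166). That of Parp14 was 0.0679 with the sample number as a covariate. The tankyrase gene Tnks rose by 0.32 ± 0.058 (limma, adjusted p = 0.00101), and by 0.23 ± 0.062 when its 2 probe sets were averaged (limma, adjusted p = 0.0244). Parp1, the main consumer in DNA repair, did not pass, at -0.16 ± 0.061 (limma, adjusted p = 0.119).

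The transport of NAD into mitochondria and its conversion to NADP form the next list. Slc25a51, the mitochondrial NAD carrier, ranged from 7.37 to 8.30 in sleep-deprived livers, against 6.61 to 7.34 in control livers. The ranges did not overlap, and it rose by 0.93 ± 0.14, a 1.91-fold level (limma, adjusted p = 0.00017). Nadk2, the mitochondrial NAD kinase, ranged from 8.74 to 8.93 in sleep-deprived livers, against 9.16 to 9.37 in control livers. It was lower without overlap, at -0.43 ± 0.047 (limma, adjusted p = 5.42e-06), while the cytosolic kinase Nadk was at 0.11 ± 0.046 (adjusted p = 0.183). Of the 14 genes of that list 1 rose and 4 fell, among them Idh1, a cytosolic source of NADPH, at -0.32 ± 0.049 (limma, adjusted p = 0.000211). In that list 35.7% passed, against 8.5% of all genes.

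Among 13 genes for known substrates of mitochondrial sirtuins 1 rose and 2 fell, and among 13 SIRT1 partners and substrates 2 rose and 1 fell. In each list 23.1% passed, against 8.5% of all genes and 20.4% of the genes above median brightness. That last share comes from a fit adjusted over those genes alone, a different bar, and no list was tested as a set. Idh2, which SIRT3 deacetylates, was at -0.40 ± 0.076 (limma, adjusted p = 0.00156) and Uox, urate oxidase of peroxisomes and a reported SIRT5 target, at -0.22 ± 0.035 (adjusted p = 0.000395). Cps1, the urea cycle entry enzyme that SIRT5 acts on, rose by 0.11 ± 0.034 (limma, adjusted p = 0.0417), which no longer passed in 10 of 14 fits that each omitted a mouse (adjusted p at most 0.0949), nor by exact permutation over all genes (0.0647). Of the SIRT1 list, Foxo1 rose by 0.28 ± 0.060 and Rela by 0.24 ± 0.064, and Srebf1 fell, at -1.35 ± 0.13 (limma, adjusted p = 0.00426, 0.0222 and 1.15e-06). The call of Rela was lost without control mouse 4 or sleep-deprived mouse 13 (adjusted p up to 0.0556), and by exact permutation over all genes (0.0732).

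The clock genes tied to Nampt had 2 of 12 higher and 4 lower. Per3 and Dbp were lower without overlap of the groups, at -1.03 ± 0.073 and -0.91 ± 0.14 (limma, adjusted p = 9.72e-08 and 0.000297). Nr1d2 was lower at -0.24 ± 0.057 (limma, adjusted p = 0.01) and Nfil3 higher at 0.44 ± 0.094 (limma, adjusted p = 0.00412). Arntl, whose product BMAL1 activates Nampt with CLOCK, averaged 5.79 ± 0.64 in sleep-deprived and 4.74 ± 0.29 in control livers (SD, n = 7 each). Nr1d1, whose product represses Arntl, averaged 7.91 ± 0.325 in sleep-deprived and 8.57 ± 0.36 in control livers (SD, n = 7 each). They differed by 1.06 ± 0.22 and -0.67 ± 0.15 (limma, adjusted p = 0.00323 and 0.00679), beside the 0.16 ± 0.077 of Nampt that did not pass. By exact permutation over all genes Nr1d1 narrowly lost its call (adjusted p = 0.050002).

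**Figure D4:**
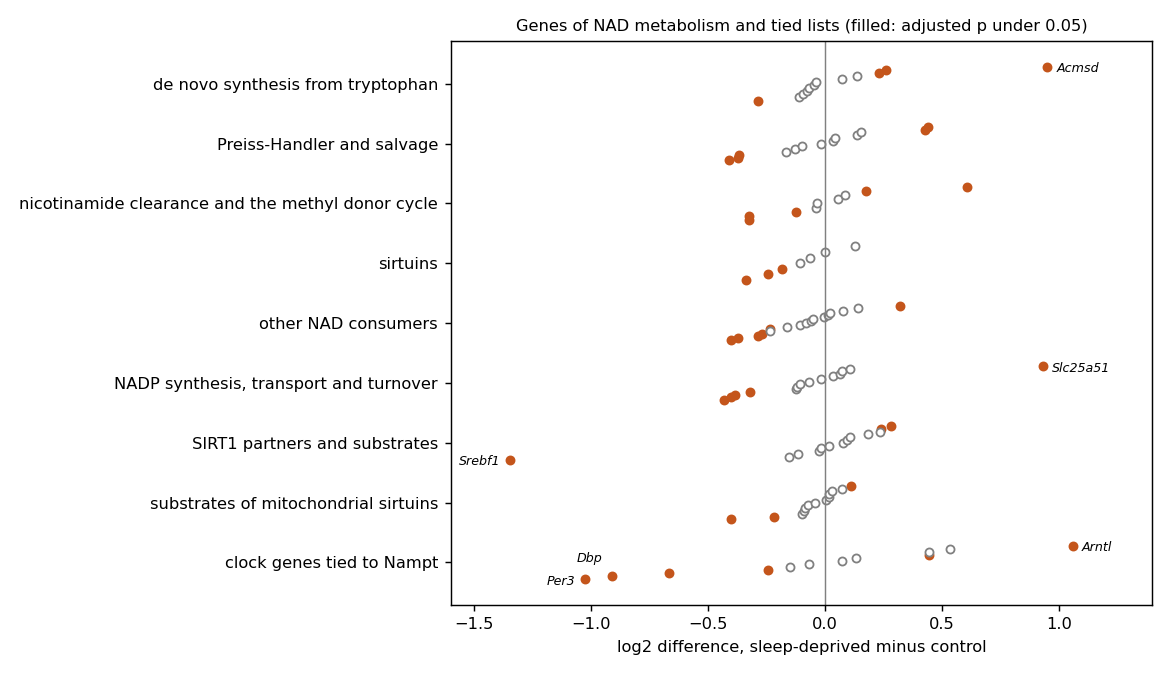
Log2 difference of sleep-deprived minus control for each measured gene of 9 lists around NAD metabolism, 1 row a list. Filled points passed an adjusted p under 0.05 over all genes, and those past 0.9 in size are named, with Acmsd at 0.95 and Slc25a51 at 0.93.

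Promoter sequences are given as a description, beside the clock genes above. RefSeq promoter windows of GRCm38.p6, 250 bases before to 50 after an annotated start, were found for 9 of the 10 genes (all but Nnmt), in 12 windows. Each was searched on both strands for CACGTG (the E-box bound by clock activators), for CACGTT (its variant), for TTATGNAA (the D-box), for AGGTCA (the half-site of nuclear receptors such as REV-ERB and ROR) and for the full palindrome of the glucocorticoid response element. Sirt1 held CACGTG at 115 and at 43 bases before its start, where 7.15% of all 32851 windows held it at all and 0.594% held it more than once. The Sirt1 window was 79.0% G and C, the highest of the 12, and the share among windows of like content was not computed. AGGTCA was found in the windows of Nampt, Nmnat3 and Sirt5, in the last of them at 2 places on opposite strands. That half-site stood in 16.3% of all windows, and in 1.81% at least 2 times. The windows of Nadsyn1, Nmnat1, Qprt, Sirt3 and Sirt6 held none of these letters. The 4 windows with a match are shown 5′ to 3′ on the strand of the gene, with the matched letters in capitals, so that the 2 that belong to lower genes (Nmnat3 and Sirt5) can be read beside the 2 that did not pass (Nampt and Sirt1). They lie at chr12:32820085-32820384 (Nampt, plus strand), chr9:98296320-98296619 (Nmnat3, plus strand), chr10:63338986-63339285 (Sirt1, minus strand) and chr13:43365285-43365584 (Sirt5, plus strand).
Nampt: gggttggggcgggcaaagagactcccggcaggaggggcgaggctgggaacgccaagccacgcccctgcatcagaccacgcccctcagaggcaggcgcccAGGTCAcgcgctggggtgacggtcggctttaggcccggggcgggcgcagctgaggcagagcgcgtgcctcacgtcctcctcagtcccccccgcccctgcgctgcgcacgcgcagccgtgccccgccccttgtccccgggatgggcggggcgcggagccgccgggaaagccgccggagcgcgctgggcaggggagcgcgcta
Nmnat3: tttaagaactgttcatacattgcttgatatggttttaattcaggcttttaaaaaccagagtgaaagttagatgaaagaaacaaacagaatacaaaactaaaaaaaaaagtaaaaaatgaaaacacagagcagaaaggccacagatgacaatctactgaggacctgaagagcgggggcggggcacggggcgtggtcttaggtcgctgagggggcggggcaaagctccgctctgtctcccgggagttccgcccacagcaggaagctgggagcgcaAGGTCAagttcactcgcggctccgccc
Sirt1: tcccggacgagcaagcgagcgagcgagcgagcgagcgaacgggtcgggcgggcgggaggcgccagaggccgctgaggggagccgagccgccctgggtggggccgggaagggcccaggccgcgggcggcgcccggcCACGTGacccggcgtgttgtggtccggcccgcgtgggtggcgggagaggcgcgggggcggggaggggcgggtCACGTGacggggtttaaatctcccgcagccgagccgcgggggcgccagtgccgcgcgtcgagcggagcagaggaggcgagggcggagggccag
Sirt5: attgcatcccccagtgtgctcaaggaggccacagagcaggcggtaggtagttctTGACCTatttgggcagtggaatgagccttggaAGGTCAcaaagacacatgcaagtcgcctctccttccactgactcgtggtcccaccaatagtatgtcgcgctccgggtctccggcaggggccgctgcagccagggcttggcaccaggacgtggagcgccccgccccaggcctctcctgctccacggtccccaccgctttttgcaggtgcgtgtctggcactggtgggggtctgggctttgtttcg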

How the data were processed

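For 14 liver arrays the authors deposited 1 log2 value for each probe set, made with RMA, per the submitters' processing notes, from 100 ng of total RNA labelled with the Affymetrix WT PLUS kit, per the labels' protocols. Version, software and filters are not given in the sources here. Groups came from the sample titles. No label states that the samples come from separate mice. They are called mice here, and p-values measure the spread between these samples. The number of arrays, 7 per group, limits the precision.

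Of 41345 probe sets 23521 had 1 gene symbol in the platform annotation, 1814 had several and 16010 were not listed there. Symbols were checked by Entrez ID (23328 matched, 0 changed). The brightest probe set over all 14 arrays stood for a gene, which gave 22180 genes, with no filter on dim ones. Sleep-deprived minus control was fitted on all genes (two-sided) by limma 3.58.1 under R 4.3.3, using lmFit and eBayes with an intensity trend, with Benjamini-Hochberg adjustment and a threshold of 0.05. Exact permutation tests went through all 3432 ways of assigning the group labels, where the smallest p is 0.000583. The steps were tested on simulated data.

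The 10 genes, the lists around them and the markers were chosen with earlier results of these data known. All 10 genes are named. Of each list the genes past the threshold, at most 6 by adjusted p, could be named, and others named for contrast were chosen after their values were seen. Of the genes on the 9 lists, those not counted as measured are not analysed here.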

Additional observations from a re-analysis of the deposited data

How the results depend on the processing

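The 10 alternatives were eBayes without the trend, robust eBayes, array weights, the genes above median brightness alone, averaged probe sets, all probe sets tested singly, median centring, repeated quantile normalization, a covariate for the sample number and exact permutation. Together with leaving out each of the 14 mice, they left the sign of all 10 genes as reported. They gave 1456 to 2259 genes past the threshold, and 1541 to 1893 without 1 mouse, against 1886. The covariate for the sample number gave 950 higher and 911 lower genes, against 861 and 1025. Of the 10 genes 5 passed, 4 to 5 under the alternatives and 3 to 5 without 1 mouse.

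Nadsyn1 and Nmnat3 kept their calls throughout. The call of Nnmt (0.61) was lost by exact permutation (adjusted p = 0.0806). That of Sirt3 was lost at -0.19 without the trend (adjusted p = 0.0757) and with every probe set (0.0514), and at -0.18 with median centring (0.0558). Without 1 mouse Sirt3 lay between -0.21 and -0.16, and Sirt5 between -0.37 and -0.27. Sirt5 lost its call in 4 of those 14 fits. The cause was not tested. The same alternatives for genes of the lists, and the 7 pairs without 1 mouse, were added after the data were seen, and 0 of them changed sign. Of the 35 further genes that the rule allowed to be named, 13 lost a call under at least 1 of the 10 alternatives and 8 without at least 1 mouse. No paired analysis was possible because the sample numbers are not shared between the groups. RMA values carry no detection calls, so the dim probe sets of Nmnat3 and Sirt6 have no bound against background.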
